A study of Mus musculus with 20 samples.

Results

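The genes described here are 40 collagen chains, matrix glycoproteins, crosslinking enzymes, metalloproteinases and metalloproteinase inhibitors, taken by gene symbol from a table of 48440 genes. All 40 symbols were found, on 18 chromosomes. They fall into 8 roles: 6 fibrillar collagen chains (Col1a1, Col1a2, Col3a1, Col5a1, Col5a2 and Col5a3), 4 collagen chains of basement membranes (Col4a1, Col4a2, Col15a1 and Col18a1), 6 chains of collagen VI, collagen VIII and the fibril-associated collagens (Col6a1, Col6a2, Col6a3, Col8a1, Col12a1 and Col14a1), 7 laminin chains and nidogens, 7 genes for fibronectin, elastin and matricellular proteins, 2 small leucine-rich proteoglycans, 3 crosslinking oxidases and 5 metalloproteinases or their inhibitors. The study compared PKCepsilon-deficient mice, labelled AdEpsKO and called KO here, with wild-type (WT) mice, by RNA-seq of liver and gonadal fat. Prkce encodes PKCepsilon. All mice had a C57BL/6 strain background and all, WT included, ate a high fat diet for 1 week and were fasted for 6 h, so no group was on another diet. No label spells out AdEpsKO, so the cells in which Prkce was deleted are not stated, and neither age nor sex is given. With 2 genotypes and 2 tissues there were 4 groups of 5 libraries.

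The extracellular matrix is a network of secreted proteins that surrounds cells. Fibrillar collagens form its tensile fibres, which lysyl oxidases crosslink. Collagen IV, laminins and nidogens build the thin basement membrane on which endothelial cells and adipocytes rest. Metalloproteinases cut these matrix proteins under the control of their tissue inhibitors. In adipose tissue most of the fibrillar collagen comes from fibroblasts and adipocyte progenitors while each adipocyte is wrapped in a basement membrane, and in liver hepatocytes secrete the plasma form of fibronectin and collagen XVIII while stellate cells are the main source of fibrillar collagen in scarring.

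Promoter sequence before the annotated start could be read for 25 of the 40 genes in a RefSeq table for GRCm38.p6, 28 windows in all, and the 250 bases before the start were searched on both strands for 4 letter strings. CCAAT stood in 11 of the 28 windows and in 33.85% of all 32851 windows of the table. GGGCGG stood in 16 of the 28 (32.74% of all windows), TATAAA in 3 (12.37%) and TGANTCA in 1, that of Col6a1 (6.749%). A match is a run of letters and not a shown binding site, and the strings can overlap each other. Some of the windows overlap an annotated exon, mostly of the same gene, and so hold transcribed sequence. The Col6a1 window is among these, and the windows of the sequences printed here are not. The sequences printed here, 5′ to 3′ on the plus strand with matches in capitals (ATTGG and CCGCCC are CCAAT and GGGCGG read on the other strand), are those of a gene with a large fat to liver difference and no match (Col15a1, chr4:47207762-47208011), an abundant fibrillar chain with TATAAA that begins 117 bases before the start (Col3a1, chr1:45311288-45311537), and the protease and inhibitor whose fat libraries lay farthest apart (Mmp14, chr14:54431348-54431597, and Timp1, chrX:20869916-20870165).
Col15a1: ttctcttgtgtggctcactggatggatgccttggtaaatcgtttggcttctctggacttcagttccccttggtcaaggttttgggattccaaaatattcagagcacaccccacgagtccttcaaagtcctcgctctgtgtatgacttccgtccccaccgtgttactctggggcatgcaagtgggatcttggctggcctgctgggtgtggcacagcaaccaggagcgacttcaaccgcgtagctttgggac
Col3a1: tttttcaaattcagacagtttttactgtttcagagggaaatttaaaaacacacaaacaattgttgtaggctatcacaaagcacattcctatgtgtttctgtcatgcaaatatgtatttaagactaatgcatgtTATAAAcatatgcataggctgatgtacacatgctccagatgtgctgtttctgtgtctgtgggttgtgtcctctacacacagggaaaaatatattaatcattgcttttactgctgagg
Mmp14: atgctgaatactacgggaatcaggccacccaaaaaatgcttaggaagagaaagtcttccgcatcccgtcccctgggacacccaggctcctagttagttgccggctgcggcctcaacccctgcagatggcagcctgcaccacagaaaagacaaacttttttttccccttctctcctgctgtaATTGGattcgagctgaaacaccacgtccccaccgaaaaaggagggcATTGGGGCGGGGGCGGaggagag
Timp1: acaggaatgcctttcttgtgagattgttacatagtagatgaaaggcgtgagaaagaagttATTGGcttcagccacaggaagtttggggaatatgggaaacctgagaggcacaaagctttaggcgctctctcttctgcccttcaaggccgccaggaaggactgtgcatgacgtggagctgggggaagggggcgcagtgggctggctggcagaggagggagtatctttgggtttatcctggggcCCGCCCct
Mmp14 held CCAAT on the other strand 69 and 23 bases before its start and GGGCGG 19 and 13 bases before it. Timp1 held CCAAT 190 bases and GGGCGG 8 bases before its start, both on the other strand.

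Col4a1 and Col4a2, whose chains assemble into the common collagen IV trimer, lie head to head on chromosome 8, and their annotated first exons overlap. Col4a1 (11198423 to 11312826, minus strand) and Col4a2 (11312805 to 11449287, plus strand) share the 22 bases at chr8:11312805-11312826, given here on the plus strand with GGGCGG in capitals.
Col4a1 and Col4a2 overlap: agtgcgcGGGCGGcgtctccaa
Further neighbours among the 40 were Col3a1 and Col5a2 on chromosome 1, with 24614 bases between them, and Col6a2 and Col6a1 on chromosome 10, with 85161 bases between them.

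Total expected counts ran from 12880933 to 17276907 per fat library and from 13836370 to 20784145 per liver library, and the 40 genes took 2.44 ± 0.812% of the counts in WT fat, 2.14 ± 0.346% in KO fat, 0.465 ± 0.0295% in WT liver and 0.415 ± 0.0338% in KO liver (SD, n = 5). Levels are given as CPM, counts scaled to a common library total, with library sizes corrected by TMM over all 20 libraries. A ratio is the fitted KO to WT fold, with its 95% interval after it. Prkce was at 22.5 ± 4.10 CPM in KO fat and 36.5 ± 10.2 in WT fat (ratio 0.615, 0.450 to 0.841, edgeR p = 0.00589, adjusted p = 0.687, exact permutation p = 0.00794), with no overlap of the libraries. It was at 15.4 ± 3.57 CPM in KO liver and 19.7 ± 4.89 in WT liver (ratio 0.781, 0.595 to 1.02, p = 0.0702, adjusted p = 0.417, exact permutation p = 0.135). The 12 adipocyte markers were all higher in WT fat than in WT liver and the 11 tested hepatocyte markers all lower. Libraries that stood apart were WT fat 3 and KO fat 3, with the highest summed macrophage markers (such as Adgre1 and Cd68), KO fat 2, with 1477 CPM of urothelial and other epithelial markers against at most 52.5 in the other fat libraries, and WT liver 2 and WT liver 4, with 293 and 515 CPM of skeletal muscle markers against at most 58.4 in the other liver libraries. In tissue RNA, fewer cells of a type and less RNA per cell cannot be told apart.

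Fat and liver were compared within each genotype to describe where the matrix genes are expressed. In WT mice 35 of the 40 genes were higher in fat than in liver, 3 were lower and 2 did not pass the test (edgeR, adjusted p under 0.05), where 74.3% of all 14739 genes tested passed, 38.4% as higher in fat and 35.9% as lower. The median of the 40 was 4.30 on the log2 scale, beside 0.04 over all genes tested. In KO mice the counts were again 35 higher, 3 lower and 2 that did not pass, with each of the 40 genes called as in WT, and the median was 4.28 beside 0.05 over all genes tested (74.4% of 14603 genes passed, 38.8% as higher and 35.6% as lower in fat). More than 4-fold higher in fat were 34 of the genes in each genotype, against 15.5% of all genes in WT and 16.6% in KO. More than 16-fold higher were 22 in WT (5.71% of all genes) and 23 in KO (6.3%). More than 4-fold higher in liver were Col18a1 and Fn1 in each genotype, against 10.8% of all genes in WT and 10.6% in KO, and 0 of the 40 were more than 16-fold higher in liver (5.71% and 5.46% of all genes). Every fat library lay above every liver library for 35 of the 40 genes in WT and in KO, which held for 32.2% and 32.1% of all genes. Every fat library lay below every liver library for 2 genes in WT and 3 in KO, beside 30.3% and 31% of all genes. Without TMM, on plain library sizes, the median of all genes moved by 0.93 in WT and 0.89 in KO towards fat, so each log2 difference between tissues is relative to that choice.

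**Figure D1:**
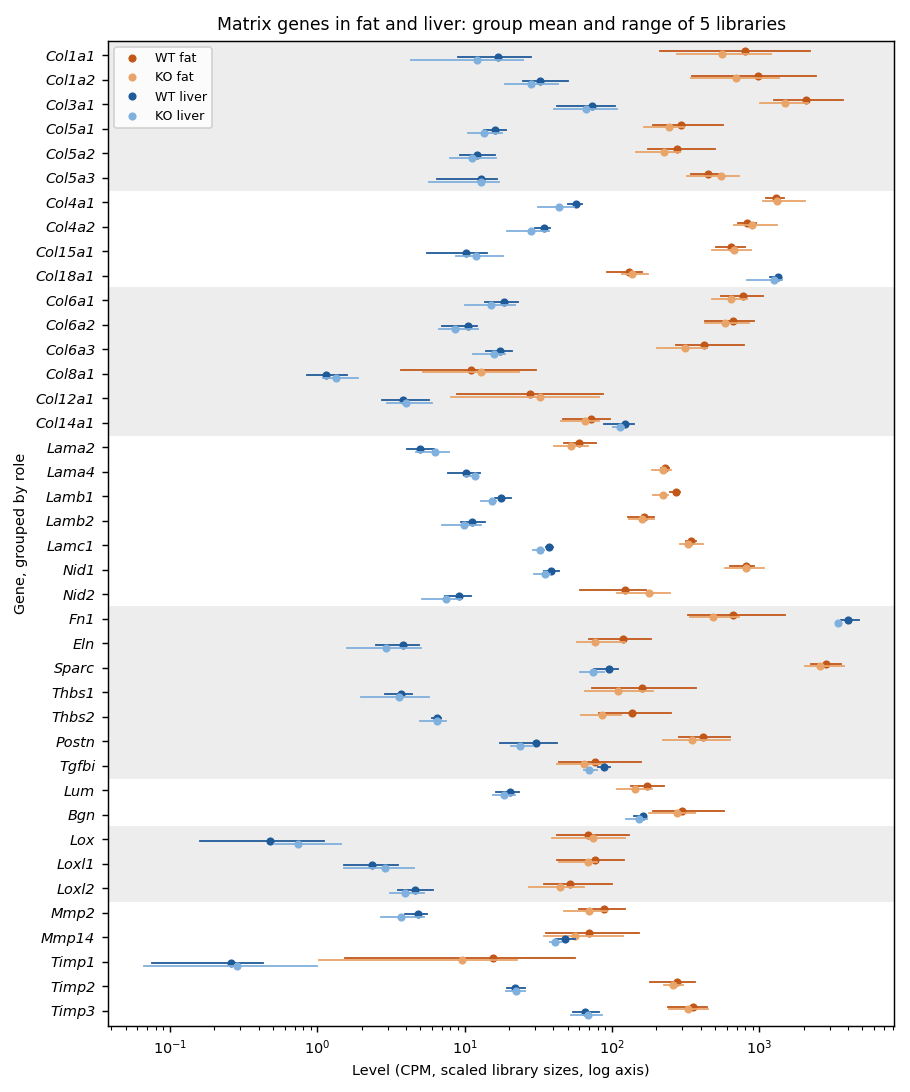
Mean level of each of the 40 genes in CPM (log axis) in WT fat, KO fat, WT liver and KO liver, with a line from the lowest to the highest of the 5 libraries. The orange fat points lie to the right of the blue liver points for 36 genes, and to the left for Col18a1, Fn1, Col14a1 and Tgfbi, of which Col14a1 and Tgfbi turn to the right on plain library sizes.

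The 6 fibrillar chains were all higher in WT fat, with a median log2 difference of 4.87. Col1a1 and Col1a2, the chains of collagen I, were 47.9-fold and 30.1-fold higher, Col3a1, of collagen III, 28.3-fold, and the collagen V chains Col5a1, Col5a2 and Col5a3 18.2-fold, 23.2-fold and 35.1-fold. Of the basement membrane collagens, Col4a1 and Col4a2 were 22.8-fold and 24.3-fold higher in WT fat and Col15a1, of the muscle and vessel basement membrane collagen XV, 62.5-fold. In CPM, Col15a1 read 802, 737, 537, 509 and 612 in the 5 WT fat libraries, in the order of their numbers, and 14.2, 11.4, 5.52, 10.4 and 9.84 in WT liver. In KO it read 875, 479.9, 524, 687 and 819 CPM in fat and 8.71, 18.3, 11.9, 11.8 and 9.26 in liver. The lowest fat library thus lay far above the highest liver library in both genotypes.

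Col18a1 went the other way. It encodes collagen XVIII, whose C-terminal fragment is endostatin, and read 126, 135, 138, 91.7 and 159 CPM in WT fat and 1318, 1408, 1182, 1399 and 1402 in WT liver. The level was 10.3-fold higher in WT liver (log2 -3.36 ± 0.18 SE, adjusted p = 1.11e-08), and KO mice gave a log2 difference of -3.17 ± 0.20 (adjusted p = 6.94e-08). KO liver read 1387, 1416, 1307, 1383 and 819 CPM and KO fat 175, 134, 116, 124 and 138. KO liver 5 was the lowest liver library and still far above each fat library.

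Of the collagen VI chains, which form the beaded filaments around adipocytes, Col6a1 and Col6a2 were among the genes with the largest excess in fat. Col6a3 lay nearer the median of the 40, which was 19.7-fold in WT. Col6a1 was 42.5-fold, Col6a2 63.1-fold and Col6a3 24.4-fold higher in WT. Col6a2 read 605, 509, 919.6, 427 and 840.3 CPM in WT fat and 10.7, 10.6, 12.1, 6.98 and 12.2 in WT liver, then 678, 429, 427, 549.9 and 856 in KO fat and 7.43, 9.61, 6.68, 12.3 and 6.73 in KO liver. Col8a1 (9.81-fold) and Col12a1 (7.31-fold) were higher in fat from low levels. Col14a1, of the fibril-associated collagen XIV, read 46.2, 84.2, 81.2, 53.0 and 97.4 CPM in WT fat and 126, 116, 140.2, 88.4 and 137 in WT liver, and 45.3, 81.6, 73.4, 64.5 and 61.4 and 114, 115, 112, 120.4 and 102 in KO. The WT groups overlapped and the KO groups did not. It was lower in fat with TMM scaling (log2 -0.74 ± 0.21, adjusted p = 0.00655 in WT and -0.76 ± 0.14, adjusted p = 3.82e-04 in KO), but on plain library sizes its log2 difference was 0.20 in WT and 0.14 in KO.

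Laminins and nidogens, the other parts of the basement membrane, were higher in fat for 7 of 7 genes in each genotype, with a median log2 difference of 3.91 in WT. The laminin alpha chains Lama2 and Lama4 were 12.0-fold and 22.5-fold higher in WT fat, the beta chains Lamb1 and Lamb2 15.4-fold and 15.0-fold, and the gamma chain Lamc1 9.25-fold. Nid1 and Nid2, which link laminin to collagen IV, were 21.3-fold and 13.5-fold higher.

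Fibronectin, elastin and the matricellular proteins split. Sparc (a collagen-binding matricellular protein) was 30.0-fold higher in WT fat, Eln (elastin) 31.3-fold, Postn (periostin) 13.6-fold, and the thrombospondins Thbs1 and Thbs2 43.2-fold and 21.3-fold. Fn1 was 5.99-fold higher in WT liver (log2 -2.58 ± 0.40, adjusted p = 9.41e-05) and its log2 difference in KO was -2.79 ± 0.24 (adjusted p = 1.001e-06). It read 329, 478, 1492, 449.9 and 581 CPM in WT fat and 3726, 4138, 3563, 4714 and 3928 in WT liver, so WT fat 3 came nearest to the liver libraries. Tgfbi, a secreted protein that binds collagen and integrins, was not called in either genotype, with a log2 difference of -0.19 ± 0.30 in WT (adjusted p = 0.577) and -0.08 ± 0.17 in KO (adjusted p = 0.672). Its call depended on 1 library and on scaling. Without WT fat 3 the WT difference was -0.62 (adjusted p = 6.22e-04), and on plain library sizes it was 0.77 in WT and 0.82 in KO (adjusted p = 0.0465 and 0.00174).

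Both small leucine-rich proteoglycans were higher in WT fat, Lum (lumican) 8.64-fold and Bgn (biglycan) 1.87-fold. The crosslinking oxidases showed the largest single difference. Lox, the lysyl oxidase, read 42.2, 53.2, 131, 58.7 and 56.0 CPM in WT fat and 0.160, 0.224, 0.690, 0.189 and 1.11 in WT liver, and 61.9, 39.0, 122, 74.3 and 75.4 and 0.566, 0.530, 0.662, 1.44 and 0.506 in KO. The liver values rest on 2, 3, 7, 2 and 13 counts in WT, where 3 counts equal 0.224 to 0.296 CPM, so the 145-fold excess in WT fat (68.7 to 305 at 95%) is imprecise, and without WT liver 5 its log2 difference was 7.78 in place of 7.18. Loxl1 and Loxl2, of the same enzyme family, were 32.6-fold and 11.4-fold higher in WT fat.

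Of the proteases and inhibitors, Mmp2, a gelatinase, was 18.3-fold higher in WT fat, Timp2 12.5-fold and Timp3, the matrix-bound inhibitor, 5.41-fold. Timp3 shares 1733 exon bases, 21.28% of its own, with Syn3 on the opposite strand, and whether the counting used strand is not stated. Mmp14, the membrane protease that activates pro-Mmp2, was not called, at 69.2 ± 48.2 CPM in WT fat and 47.9 ± 5.37 in WT liver (log2 0.54 ± 0.35, adjusted p = 0.179). On plain library sizes its difference was 1.498 in WT and 1.39 in KO and was called (adjusted p = 0.00372 and 0.00355). Timp1, the inducible inhibitor, was 58.6-fold higher in WT fat (9.01 to 380.4), from 1 to 5 counts per WT liver library. Without WT fat 3 the fitted fold of 5 genes in WT was smaller by more than 1.5 times, on the log2 scale as follows: Timp1 went from 5.87 to 4.36, Col12a1 from 2.87 to 1.79, Col8a1 from 3.29 to 2.47, Col1a1 from 5.58 to 4.76 and Col1a2 from 4.91 to 4.25. In KO, Col12a1 went from 3.05 to 2.34 without KO fat 2, and Timp1 from 5.19 to 4.56 without KO fat 3 and to 6.43 without KO liver 4. All of these were still called.

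The other matrix genes, in 6 lists outside the 40, were called in both directions, beside 38.4% of all genes called higher in WT fat and 35.9% lower. Of 26 tested enzymes and chaperones that fold and process collagen, 20 were higher in WT fat and 5 lower. Serpinh1, the collagen chaperone Hsp47, was 29.5-fold higher and Crtap, of the prolyl 3-hydroxylation complex, 6.98-fold, while Mia3 and Sec23a, which act in the export of procollagen from the endoplasmic reticulum, were lower (log2 -1.95 and -1.71). Of 16 other collagen chains 10 were higher, among them Col28a1 (29.0-fold), Col6a6 and Col4a6, and 3 lower, among them Col13a1 (log2 -3.42). Of 44 other glycoproteins and proteoglycans 38 were higher and 3 lower, with Ltbp3 49.9-fold, Dpt 35.2-fold, Sparcl1 27.4-fold and Hspg2 (perlecan) 13.0-fold higher. Of 28 other proteases and inhibitors 26 were higher and 2 lower, with Timp4 374-fold, Adamts12 80.0-fold, Plat 51.3-fold and Plau 24.6-fold higher. The TGF-beta genes gave 10 higher and 6 lower of 22, with Tgfb3 12.1-fold, Tgfb2 10.6-fold, Tgfbr3 4.70-fold and Tgfbr2 4.15-fold higher. The matrix receptors gave 11 higher and 5 lower of 23, with the integrin chain Itga6 23.6-fold and the collagen receptors Ddr1 10.00-fold and Ddr2 9.04-fold higher and the syndecan Sdc2 lower (log2 -2.36). Markers of fibroblasts and adipose progenitors, such as Pdgfra, were higher in WT fat for 14 of 15 genes, and their summed level was 7289 to 12844 CPM in WT fat and 627 to 695 in WT liver. These markers include Dpt, which is also counted among the glycoproteins. The part of cell type makeup in the tissue differences was not tested.

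Levels of different genes were compared per kilobase of the longest annotated transcript (CPM per kb). In WT fat Sparc stood highest at 1231 ± 247 CPM per kb, followed by Col3a1 at 369.9 ± 179, Col4a1 at 194 ± 23.7, Col6a1 at 189.7 ± 51.9 and Col1a2 at 182 ± 158 (SD, n = 5). The ranges of mean ± SD of the 4 genes after Sparc overlapped, and Sparc stood clear of them. In KO fat the same 4 genes led in the same order, at 1119.8, 269, 199 and 157 CPM per kb. The order after Sparc depended on the length used. Per kb of the union of exons WT fat gave Col3a1 at 209.7 ± 102, Col6a1 at 178 ± 48.6 and Col4a1 at 172 ± 21.0, with Col1a2 at rank 10, and KO fat gave Col4a1 at 176 ± 54.3, Col3a1 at 153 ± 47.4 and Col6a1 at 147 ± 34.4. Sparc read 2736, 2359.6, 3249, 2241 and 3565 CPM in WT fat and 2356, 2038, 2364, 2399 and 3720.2 in KO fat. Col3a1 read 1263, 1281, 3666, 1761 and 2319 in WT fat and 1003, 1111, 2120.0, 1468 and 1787 in KO fat. Both ranges overlapped between genotypes, and WT fat 3 was the highest WT library for Col3a1. Col4a1 read 1308, 1109, 1394, 1146 and 1474 in WT fat and 1277, 1094, 1064, 1119.9 and 2027 in KO fat, with KO fat 5 apart from the other KO libraries. Col6a1 read 714, 627, 1050.0, 552 and 947 in WT fat and 766, 479.8, 518, 624 and 826 in KO fat, again with WT fat 3 highest. The lowest in WT fat were Col8a1 at 2.17 ± 2.15, Col12a1 at 2.42 ± 2.89 and Lama2 at 6.18 ± 1.203 CPM per kb. In WT liver Fn1 led at 483 ± 53.7 CPM per kb, then Col18a1 at 239.8 ± 17.3, Bgn at 60.5 ± 4.68, Sparc at 41.3 ± 5.86 and Tgfbi at 29.3 ± 2.01, each apart from its neighbour by more than their SDs. Per kb of the union of exons Bgn at 26.4 ± 2.05, Sparc at 25.05 ± 3.56 and Tgfbi at 23.3 ± 1.601 were not apart in WT liver. Per kb of the longest transcript KO liver gave the same first 4, at 412, 226, 56.8 and 32.3. Bgn read 162, 169.9, 165, 139.8 and 170.2 CPM in WT liver, 172, 157, 124.7, 154 and 149.7 in KO liver, 189, 209, 574, 196 and 328 in WT fat and 178, 240.1, 365, 300.4 and 301 in KO fat. Among the liver leaders Fn1 and Col18a1 were higher in liver than in fat and Bgn and Sparc were higher in fat. Lox (0.1002), Col8a1 (0.223) and Timp1 (0.293 CPM per kb) were lowest in WT liver.

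The fat libraries spread widely in these genes, and the spread differed by role. Over the 10 fat libraries the median coefficient of variation (CV, SD over mean) of the 40 genes was 35.0%, beside 18.1% for all genes tested, while in liver it was 19.6% beside 16.4%. By role the median CV in fat was 47.9% for fibronectin, elastin and matricellular genes, 44.1% for fibrillar collagens, 43.9% for oxidases, 38.2% for collagen VI, VIII and fibril-associated chains, 32.3% for the proteoglycans, 29.2% for proteases and inhibitors, 21.7% for basement membrane collagens and 16.2% for laminins and nidogens. Without WT fat 3 and KO fat 3 the roles lay closer together, at 28.6% for collagen VI, VIII and fibril-associated chains, 26.7% for the matricellular group, 26.3% for fibrillar collagens, 25.02% for proteases and inhibitors, 22.9% for oxidases, 21.7% for the proteoglycans, 21.5% for basement membrane collagens and 13.4% for laminins and nidogens. WT fat 3 held the highest fat value of 23 of the 40 genes, against 18.5% of all genes. In it 18 of the 40 were at more than 2-fold the median of the other 9 fat libraries, and the share of all genes above 2-fold is not given. The median ratio of WT fat 3 to those 9 was 2.54 for fibrillar collagens, 0.867 for laminins and nidogens and 1.01 for all genes tested. Genes given here as examples of the spread were chosen after their values were seen. Timp1 read 1.79, 1.54, 56.1, 13.4 and 4.55 CPM in WT fat and 1.03, 1.30, 22.7, 20.3 and 2.62 in KO fat, a 54.6-fold range, with WT fat 3 at 21.4 times the median of the other 9. In WT fat 3, Col12a1 was at 6.00 times that median, Col1a1 4.81 times, Col1a2 4.32 times, Thbs1 4.02 times and Mmp14 3.51 times. Col1a1 read 212, 362, 2201, 457 and 758 CPM in WT fat and 275, 462, 1199.9, 487 and 364 in KO fat. Nid2 was lowest in WT fat 3, at 0.398 of the median, and Lama4 varied least, with a CV of 8.92% and values from 188 to 249.95 CPM.

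KO fat 3 was high in part of that set, but held the highest fat value of 0 of the 40 genes. Set against the 8 fat libraries other than WT fat 3 and itself, Timp1 in KO fat 3 was at 10.3 times the median, Col8a1 at 3.29, Col12a1 at 3.10 and Col1a1 at 2.92 times. Timp1 was nearly as high in KO fat 4 (20.3 CPM against 22.7), and Col12a1 was higher in KO fat 2 (82.1 against 42.8). Col6a1 and Col6a2, at 1.67 times the median in WT fat 3, were at 0.773 and 0.740 in KO fat 3. Without WT fat 3 and KO fat 3 the median CV of the 40 genes in fat was 23.6% beside 16.4% for all genes, and 26.3% for fibrillar collagens. Summed macrophage markers were 2947 CPM in WT fat 3, 2057 in KO fat 3, 1717 in KO fat 4 and 540.3 to 1249 in the other 7. All 14 macrophage markers were detected in each group. Summed markers of dividing cells, such as Mki67, were 297, 209 and 151 CPM in those 3 and 40.1 to 119 in the other 7. Summed fibroblast and progenitor markers were 7289 CPM in WT fat 3 and 7373 in KO fat 3, in the lower part of the range of 6609 to 12844 over the fat libraries. KO fat 2, with the epithelial markers, also had 6296 CPM of smooth muscle and pericyte markers against at most 3056 elsewhere in fat, and 82.1 CPM of Col12a1, a level that only WT fat 3 exceeded. The part of these cell types in the spread of the matrix genes was not tested.

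**Figure D2:**
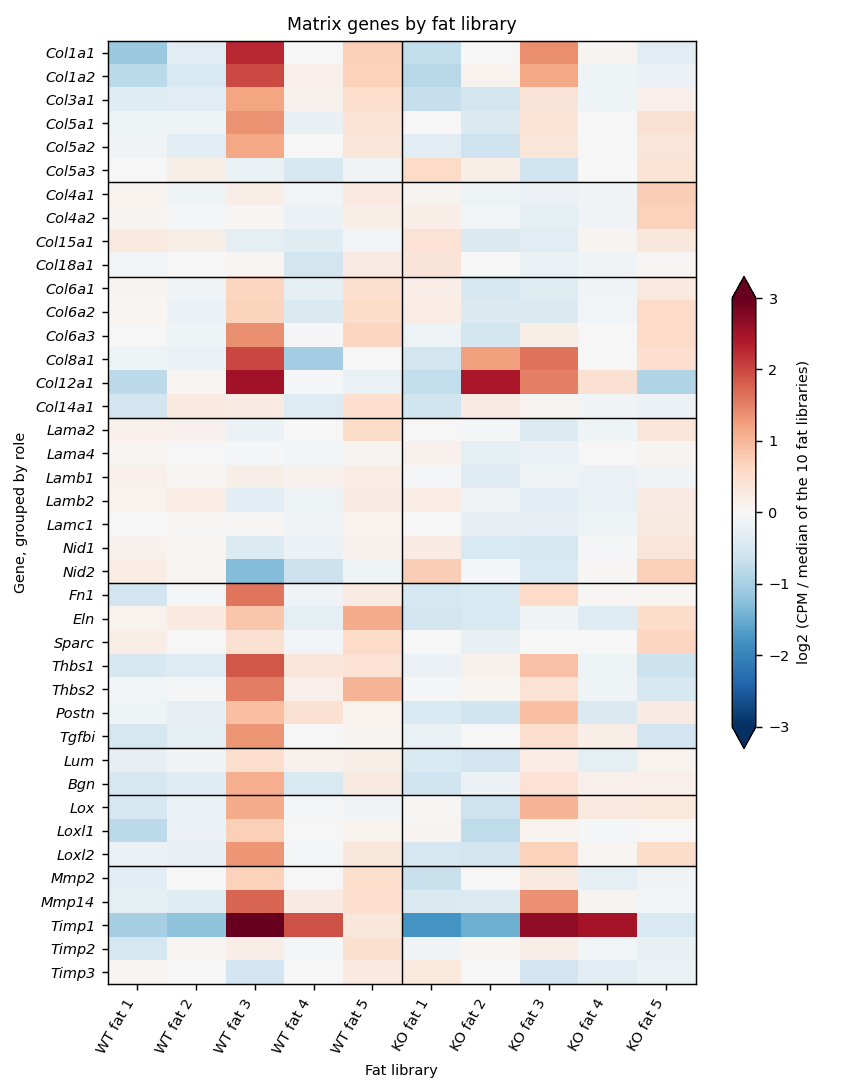
Level of each gene in each of the 10 fat libraries, as log2 of CPM over the median of the 10 fat libraries (red above, blue below, colour limits of -3 and 3), with lines between roles and between genotypes. The WT fat 3 column is red for most fibrillar collagen, matricellular and oxidase genes and pale or blue for laminins and nidogens.

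The ratio between paired chains varied by different amounts from pair to pair. The ratio of Col4a1 to Col4a2 per kb ran from 1.34 to 1.62 over the 10 fat libraries, a 1.21-fold range where Col4a1 itself spanned 1.90-fold, and from 1.39 to 1.84 in liver. Col1a1 to Col1a2 ran from 0.550 to 0.818 in fat, where Col1a1 itself spanned 10.4-fold, and from 0.207 to 0.523 in liver, with no overlap between the tissues. Col6a1 to Col6a2 ran from 1.16 to 1.55 in fat and 1.78 to 2.66 in liver, also with no overlap. For some pairs the ratio varied as much as a single gene. Lamb1 to Lamc1 spanned 1.54-fold in fat, where Lamb1 itself spanned 1.52-fold and Lamc1 1.44-fold. Col6a1 to Col6a3 spanned 1.87-fold in liver, where Col6a3 itself spanned 1.82-fold. Col3a1 to Col1a1 ran from 1.78 in WT fat 3 to 6.36 in WT fat 1. Nid1 to Nid2 ran from 3.20 in KO fat 1 to 8.39 in WT fat 3. Timp1 to Timp3 ran from 0.0124 to 1.24 in fat, a 101-fold range. The pairs were chosen with the levels known and are a description.

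**Figure D3:**
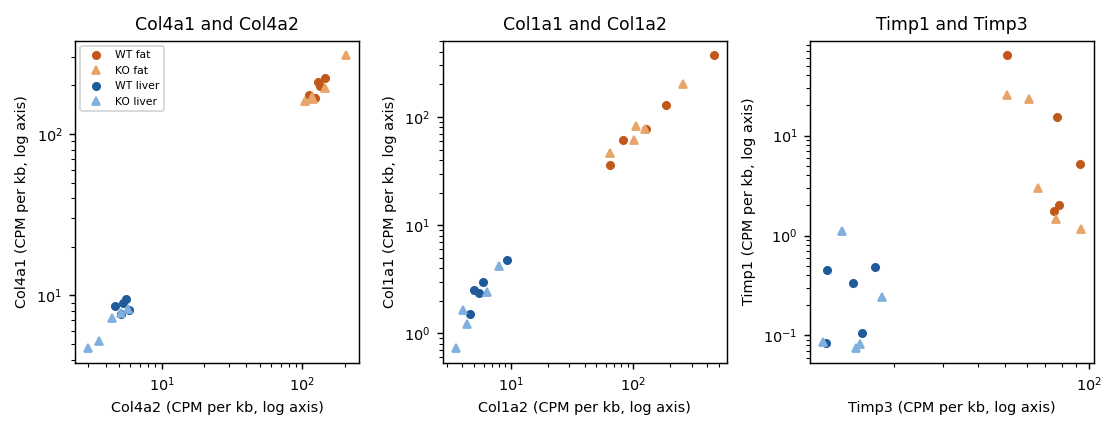
Levels per kb (log axes) of Col4a1 against Col4a2, Col1a1 against Col1a2 and Timp1 against Timp3, 1 point per library, circles for WT and triangles for KO, orange for fat and blue for liver. The collagen pairs follow a line within each tissue, and Timp1 spans 54.6-fold over the fat libraries where Timp3 spans 1.84-fold.

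KO and WT were compared within fat to ask whether the matrix genes differ in the PKCepsilon-deficient mice. None of the 40 genes passed an adjusted p of 0.05 in fat, and 0% of all 14707 genes did. At an unadjusted p under 0.05 edgeR gave 1 of the 40 genes, as lower in KO, and 1048 of all genes (7.13%, of which 3.64% of all genes as lower), and DESeq2 called 16 genes after adjustment, none of them among the 40. The count of 1 ran from 1 to 3 with single libraries left out, was 3 without KO fat 3, WT fat 1 or WT fat 4, and was 4 with all 20 libraries in 1 fit. The shares of all genes in these other fits are not given. The fitted KO to WT difference was below 0 for 31 of the 40, against 49.9% of all genes, with a median of -0.17 on the log2 scale beside 0.00. With 1 library left out that count ran from 19 of the 40 (without WT fat 3) to 33 (without KO fat 5). The median ran from -0.29 (without WT fat 1) to 0.01 (without WT fat 3). Without both WT fat 3 and KO fat 3, 24 were below 0 and the median was -0.06. The shares of all genes below 0 in these refits are not given. By role, 5 of 6 fibrillar collagens were fitted below 0, 0 of 4 basement membrane collagens, 4 of 6 of the collagen VI, VIII and fibril-associated chains, 6 of 7 laminins and nidogens, 7 of 7 in the fibronectin and matricellular group, 2 of 2 proteoglycans, 2 of 3 oxidases and 5 of 5 proteases and inhibitors. Markers were fitted lower in KO fat as well, for 14 of 15 of fibroblasts and progenitors, 11 of 12 of adipocytes, 11 of 13 of macrophages, 8 of 8 of erythroid cells, 5 of 6 of mast cells and 12 of 12 of skeletal muscle. The skeletal muscle markers had a median of -1.10 on the log2 scale, and their sum was highest in WT fat 2, at 882 CPM. Markers of endothelial cells were fitted higher for 10 of 14 and those of smooth muscle and pericytes for 9 of 12, and the part of these cells in the matrix values was not tested.

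Lamb1, the laminin beta 1 chain (chromosome 12, 31265234 to 31329644, GRCm38), had the smallest p in fat. It read 274, 249, 278, 269 and 288 CPM in WT fat and 240.5, 189, 228, 218 and 226 in KO fat. Each KO library lay below each WT library, which held in that direction for 0.619% of all genes. The ratio was 0.810 (0.703 to 0.933) (edgeR p = 0.00759, adjusted p = 0.687, exact permutation p = 0.00794, the smallest that 252 assignments allow), so it did not pass the adjusted threshold. Lamc1, whose chain sits in the same laminin trimers, had a ratio of 0.952 (0.792 to 1.14) in fat.

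The next genes by p overlapped between genotypes. Eln read 90.9, 103, 151, 69.6 and 183 CPM in WT fat and 57.6, 61.9, 77.8, 64.4 and 123 in KO fat, a ratio of 0.645 (0.413 to 1.01) (edgeR p = 0.0527, exact permutation p = 0.103). KO fat 5 was the only KO library above the 2 lowest WT values. Thbs2 read 81.2, 81.7, 250.3, 95.9 and 172 in WT fat and 82.1, 89.2, 116, 78.0 and 61.5 in KO fat, a ratio of 0.626 (0.381 to 1.03) (edgeR p = 0.0619, exact permutation p = 0.183), with the 3 lower WT values inside the KO range. Nid2 read 171, 154, 60.1, 93.7 and 134 in WT fat and 248, 144, 107, 151 and 242 in KO fat, a ratio of 1.45 (0.894 to 2.36) (edgeR p = 0.118, exact permutation p = 0.159), with the 2 highest values in KO and the 2 lowest in WT. Mmp2 read 59.4, 75.0, 122, 75.4 and 109 in WT fat and 47.3, 76.2, 92.0, 61.1 and 70.4 in KO fat, a ratio of 0.785 (0.559 to 1.102). Lum read 134, 149, 226, 176 and 180.1 in WT fat and 118, 108, 187, 131 and 172 in KO fat, a ratio of 0.825 (0.621 to 1.09). In both, WT fat 3 was the highest WT library and KO fat 3 the highest KO library.

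The precision differed by gene. The 95% interval of the KO to WT ratio in fat lay within 1.5-fold either way for 12 of the 40 genes and within 2-fold for 25. Among the narrow ones were Lama4 at 0.973 (0.829 to 1.14), Lamb2 at 0.965 (0.762 to 1.22), Col18a1 at 1.06 (0.833 to 1.34) and Col4a2 at 1.07 (0.806 to 1.43). Among the wide ones were Timp1 at 0.625 (0.108 to 3.62), Col12a1 at 1.17 (0.3504 to 3.92), Col8a1 at 1.17 (0.474 to 2.88) and Col1a1 at 0.701 (0.269 to 1.83). The rest were Col1a2 at 0.715, Col3a1 at 0.729, Col5a1 at 0.833, Col5a2 at 0.809, Col5a3 at 1.22, Col4a1 at 1.02, Col15a1 at 1.06, Col6a1 at 0.827, Col6a2 at 0.891, Col6a3 at 0.739, Col14a1 at 0.898, Lama2 at 0.883, Nid1 at 0.995, Fn1 at 0.727, Sparc at 0.910, Thbs1 at 0.693, Postn at 0.850, Tgfbi at 0.840, Bgn at 0.926, Lox at 1.096, Loxl1 at 0.904, Loxl2 at 0.850, Mmp14 at 0.808, Timp2 at 0.939 and Timp3 at 0.928, all with an interval that holds 1.

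**Figure D4:**
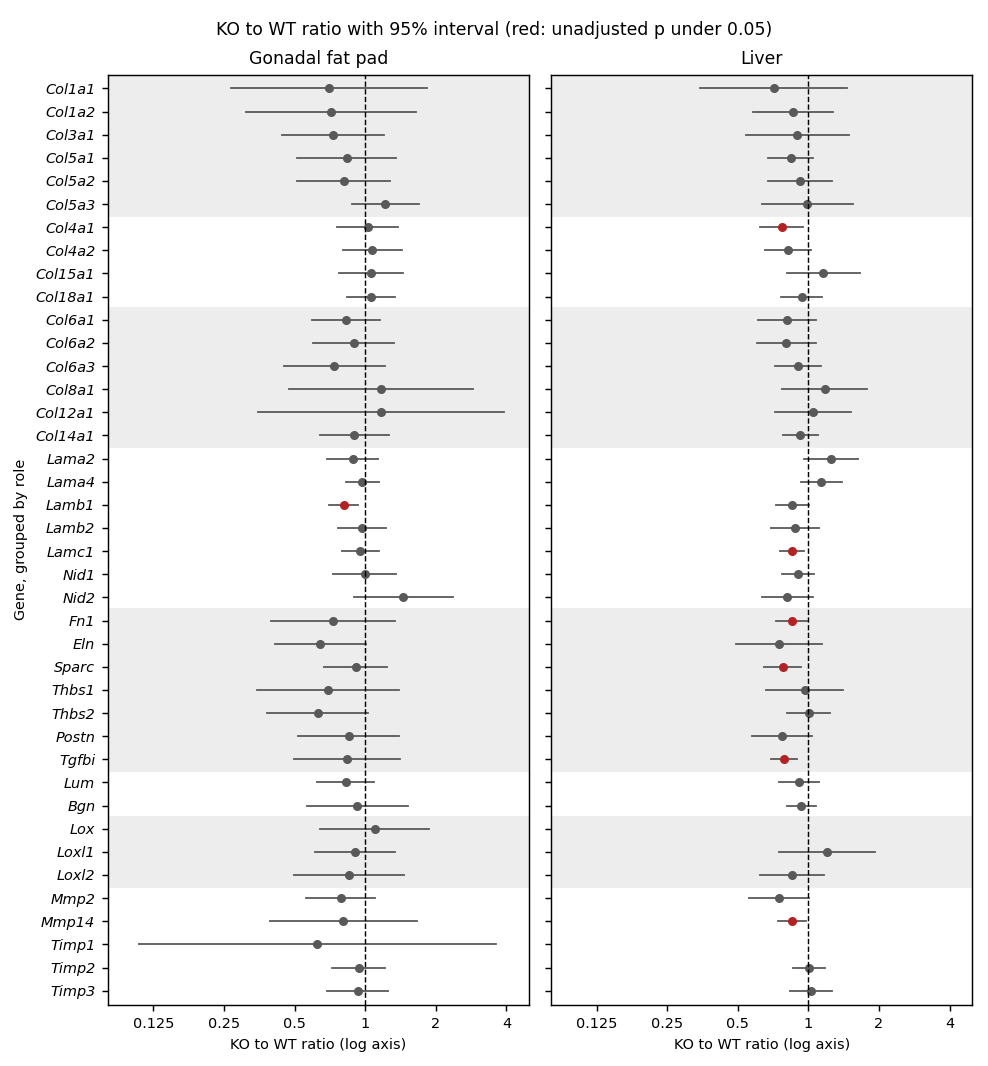
Fitted KO to WT ratio of each gene (log axis) with its 95% interval in fat (left) and liver (right), and a dashed line at 1. Points with an unadjusted p under 0.05 are red: Lamb1 in fat, and Tgfbi, Sparc, Lamc1, Col4a1, Mmp14 and Fn1 in liver, all below 1, while Lox and Timp1 were not tested in liver.

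No gene of the 6 further matrix lists passed the adjusted test in fat (adjusted p of at least 0.687). At an unadjusted p under 0.05, which 7.13% of all genes reached (3.64% as lower in KO), there were 0 of 27 folding and processing enzymes, where Pcolce (ratio 0.734, 0.528 to 1.02) had the smallest p, and 1 of 16 other collagen chains, Col6a4 (0.0455, 0.00546 to 0.379), which was low and uneven at 0.862 ± 0.550 CPM in KO and 19.0 ± 30.9 in WT fat. Of 44 other glycoproteins there were 5, all fitted lower in KO: Smoc1 (0.647, 0.494 to 0.847), Ogn (0.735, 0.563 to 0.960), Npnt (0.580, 0.358 to 0.938), Thbs3 (0.672, 0.457 to 0.990) and Ltbp1 (0.835, 0.698 to 0.998). Of 30 other proteases and inhibitors there were 3 fitted lower, among them Adamts1 (0.772, 0.633 to 0.940) and Mmp3 (0.473, 0.258 to 0.867), and 1 fitted higher, Mmp15 (1.51, 1.04 to 2.20). Of 21 TGF-beta genes there were 2, both fitted higher, Smad4 (1.195, 1.03 to 1.38) and Tgfbr1 (1.31, 1.04 to 1.65), and of 24 matrix receptors 0.

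In liver none of the 38 genes tested passed, beside 0.00752% of all 13298 genes (1 gene, none of the 40). Lox and Timp1 were too low for the test, with 2 to 13 counts of Lox per WT and 7 to 16 per KO liver library, and 1 to 5 and 1 to 11 of Timp1. At an unadjusted p under 0.05 there were 6 of the 38, all fitted lower in KO, beside 13.1% of all genes in either direction and 6.56% as lower. That count was 12 without KO liver 4 and 4 to 8 without any other single library, and 2 with all 20 libraries in 1 fit. The shares of all genes in these other fits are not given. The fitted difference was below 0 for 29 of 38 (50% of all genes), with a median of -0.17 beside 0.00. Without WT liver 2 and WT liver 4, which hold the skeletal muscle transcripts, 31 of 38 were below 0 and the median was -0.22. The groups separated with KO lower for 3 of the genes, Tgfbi, Lamc1 and Fn1, beside 1.07% of all genes.

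Tgfbi (chromosome 13, 56609523 to 56639562, GRCm38) read 96.8, 89.4, 85.7, 80.1 and 87.7 CPM in WT liver and 64.5, 69.9, 79.3, 68.1 and 66.5 in KO liver. The groups did not overlap, and WT liver 4 and KO liver 3 lay nearest to each other. The ratio was 0.787 (0.695 to 0.892) (edgeR p = 0.00105, adjusted p = 0.211, exact permutation p = 0.00794), which did not pass, while DESeq2 gave an adjusted p of 0.0229, beside 138 genes it called in all. Sparc read 92.6, 92.2, 110.4, 75.2 and 104 in WT liver and 73.4, 81.4, 68.3, 87.8 and 60.1 in KO liver, a ratio of 0.776 (0.648 to 0.9298) (edgeR p = 0.00923, adjusted p = 0.254, exact permutation p = 0.0397). KO liver 2 and KO liver 4 lay above the lowest WT library. Lamc1, the laminin gamma 1 chain, read 36.8, 35.7, 39.7, 37.9 and 37.5 in WT liver and 34.7, 31.3, 32.9, 33.2 and 29.1 in KO liver, a ratio of 0.853 (0.758 to 0.961) (edgeR p = 0.0124, adjusted p = 0.267, exact permutation p = 0.00794). The groups did not overlap, and WT liver 2 and KO liver 1 lay nearest to each other.

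Fn1 read 3726, 4138, 3563, 4714 and 3928 CPM in WT liver and 3441, 3479, 3332, 3504 and 3370.3 in KO liver, a ratio of 0.848 (0.730 to 0.986) (edgeR p = 0.0345, adjusted p = 0.346, exact permutation p = 0.00794). The KO libraries lay close together and all below the WT range, whose spread was wider. Col4a1 read 53.8, 62.4, 59.7, 57.0 and 50.4 in WT liver and 47.9, 51.2, 34.4, 54.8 and 31.3 in KO liver, a ratio of 0.769 (0.621 to 0.951) (edgeR p = 0.0188, adjusted p = 0.294, exact permutation p = 0.0397), with KO liver 2 and KO liver 4 inside the WT range. Its partner Col4a2 was at 28.3 ± 7.25 CPM in KO and 34.3 ± 2.88 in WT liver (ratio 0.819, 0.656 to 1.02). Mmp14 read 48.5, 56.3, 47.0, 46.02 and 41.6 in WT liver and 38.1, 45.0, 40.3, 40.3 and 41.3 in KO liver, a ratio of 0.851 (0.741 to 0.976) (edgeR p = 0.0244, adjusted p = 0.318, exact permutation p = 0.0159), with KO liver 2 above WT liver 5.

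**Figure D5:**
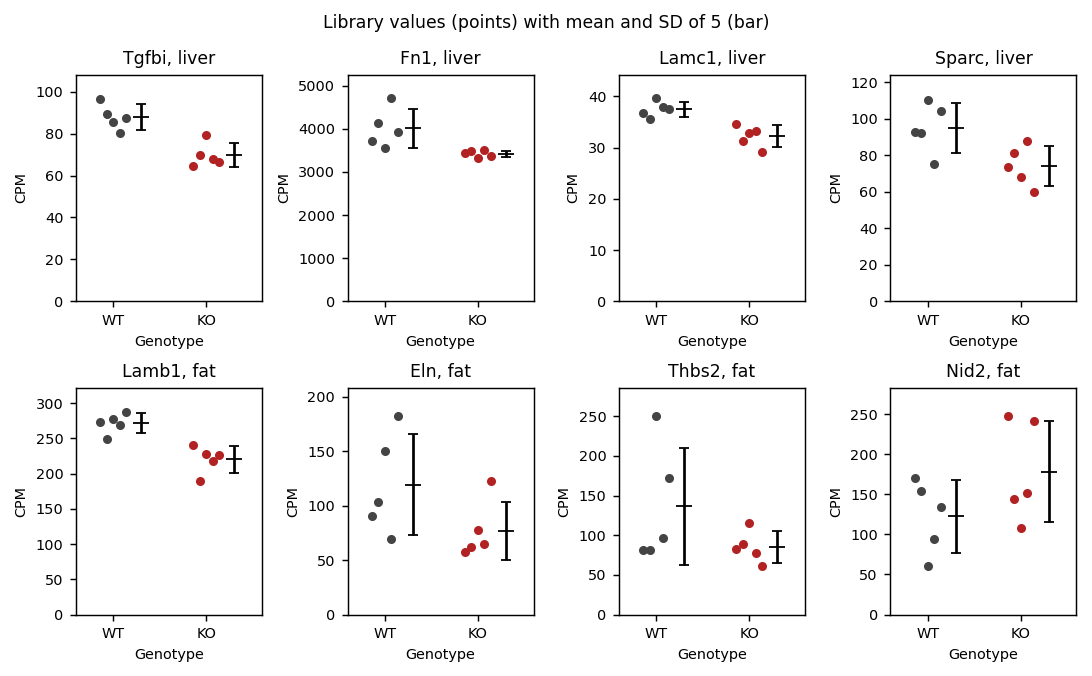
CPM of 4 genes in liver (upper row) and 4 in fat (lower row), 1 point per library, with the mean and SD of 5 libraries as a bar beside the points and axes from 0. Tgfbi, Fn1 and Lamc1 in liver and Lamb1 in fat show KO points that all lie below the WT points, and Sparc, Eln, Thbs2 and Nid2 show groups that overlap.

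Liver estimates were tighter, with 18 of 38 intervals within 1.5-fold and 36 within 2-fold. Narrow intervals around 1 were found for Timp2 at 1.00 (0.856 to 1.17), Bgn at 0.933 (0.807 to 1.08), Col14a1 at 0.921 (0.776 to 1.09), Nid1 at 0.903 (0.774 to 1.05) and Thbs2 at 1.00 (0.812 to 1.24). The widest were Col1a1 at 0.712 (0.346 to 1.47) and Eln at 0.751 (0.491 to 1.15). The remaining ratios in liver were 0.860 for Col1a2, 0.897 for Col3a1, 0.839 for Col5a1, 0.919 for Col5a2, 0.989 for Col5a3, 1.16 for Col15a1, 0.935 for Col18a1, 0.808 for Col6a1, 0.804 for Col6a2, 0.905 for Col6a3, 1.17 for Col8a1, 1.05 for Col12a1, 1.25 for Lama2, 1.13 for Lama4, 0.853 for Lamb1, 0.875 for Lamb2, 0.814 for Nid2, 0.964 for Thbs1, 0.769 for Postn, 0.910 for Lum, 1.204 for Loxl1, 0.850 for Loxl2, 0.751 for Mmp2 and 1.03 for Timp3, each with an interval that holds 1. In 24 of the 38 genes tested in both tissues the fitted difference was below 0 in fat and in liver, beside 30.2% of the 12447 genes tested in both, and in 3 (Col8a1, Col12a1 and Col15a1) it was above 0 in both. The fat part of that count depended on the libraries used. In place of 31, the genes of the 40 fitted below 0 in fat ran from 19 (without WT fat 3) to 33 (without KO fat 5). The count in both tissues without WT fat 3 is not given.

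Of the further matrix lists in liver none passed the adjusted test, and 13.1% of all genes had an unadjusted p under 0.05 (6.56% as lower in KO). Of 24 collagen folding and processing enzymes 5 had an unadjusted p under 0.05 as lower in KO and 1 as higher, with Plod3 (0.765, 0.642 to 0.910) and P4ha2 (0.662, 0.488 to 0.897), which hydroxylate collagen lysines and prolines, Crtap (0.754, 0.598 to 0.950) the chaperone Fkbp10 (0.622, 0.417 to 0.927) and Plod1 (0.859, 0.739 to 0.997) fitted lower and Sec23a (1.19, 1.01 to 1.39) higher. Of 36 other glycoproteins 4 were fitted lower at that level, Emilin1 (0.703, 0.595 to 0.831), Emilin2 (0.620, 0.450 to 0.855), Ecm1 (0.851, 0.757 to 0.957) and Hspg2 (0.818, 0.672 to 0.995). There were 0 of 11 other collagen chains and 1 of 21 other proteases, Mmp19 (1.19, 1.02 to 1.40), fitted higher. Of 21 TGF-beta genes 3 were fitted lower, Inhba (0.548, 0.356 to 0.843), Tgfb1 (0.772, 0.640 to 0.932) and Ski (0.786, 0.639 to 0.967). Of 22 matrix receptors 4 were fitted lower, Itgb3 (0.607, 0.473 to 0.780), Sdc3 (0.689, 0.551 to 0.862), Itga9 (0.840, 0.740 to 0.952) and Cd44 (0.726, 0.556 to 0.948), and 1 higher, Cd36 (1.29, 1.02 to 1.63). Ltbp1 in fat and Plod1, Sec23a and Cd36 in liver were named after their values were seen, to complete these counts. Beside these values, all 14 macrophage markers were fitted lower in KO liver, 11 of them at an unadjusted p under 0.05, with summed levels of 713 to 858 CPM in KO and 749 to 1394 in WT liver. All 9 tested markers of dividing cells were fitted lower at that level, with summed levels of 13.4 to 17.3 CPM in KO and 23.3 to 65.2 in WT liver, and 9 of 12 stellate cell markers, such as Lrat and Reln, were fitted lower, 2 at that level. The stellate list holds Ecm1, which is also counted among the glycoproteins, so the 2 counts are not independent. All 8 tested erythroid markers were fitted lower, 6 at that level (median log2 -1.09), as were all 8 of skeletal muscle, 0 at that level (median -2.88), and 12 of 14 endothelial markers, 2 at that level. Of 13 fibroblast and progenitor markers 8 were fitted lower and 5 higher, 0 at that level (median -0.01). All 6 tested mesothelial markers and 4 of 7 bile duct markers were fitted higher, 0 at that level. The part of these cells in the matrix values was not tested.

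The difference of the KO effect between the tissues was tested as an interaction over all 20 libraries. None of the 40 genes passed and 0% of all 15652 genes did, and at an unadjusted p under 0.05 edgeR gave 2 of the 40 and 5.36% of all genes, while DESeq2 called 2 genes, none of the 40. The fitted difference was negative for 25 of the 40, against 49.1% of all genes. With 1 library left out that count ran from 13 (without WT fat 3) to 29 (without WT fat 1). The shares of all genes in these refits are not given. The 2 genes were Nid2, with a KO effect in fat minus that in liver of 0.83 ± 0.38 on the log2 scale (edgeR adjusted p = 0.903), and Lama2, with -0.51 ± 0.23 (edgeR adjusted p = 0.903). For Nid2 the KO to WT ratio was 1.45 in fat and 0.814 in liver, and for Lama2 0.883 and 1.25. Nid2 shares 8.446% of its exon bases with Rtraf on the opposite strand. For Fn1, the liver-high gene, the interaction was -0.23 ± 0.44, and for Col18a1 0.17 ± 0.24.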

How the data were processed

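RNA was extracted with Qiagen RNeasy and libraries were made with the TruSeq Stranded mRNA kit, per the labels' protocols. The deposited table holds expected counts per gene. The tools listed by the submitters' processing notes are RSEM 1.2.12, STAR 2.4.0d, Trim Galore 0.2.8 and DESeq2, with build GRCm38, and neither their order nor the strand setting is stated. The expected counts were rounded to whole numbers. Totals of 12880933 to 20784145 per library limit precision at low counts. Floors of 3 counts cover counting error only, while the 95% intervals of ratios come from the fit and include the spread between libraries.

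Genes were kept with edgeR 4.0.16 filterByExpr (minimum count 10, minimum total 15), scaled by TMM and tested with the robust quasi-likelihood test, KO against WT in each tissue and fat against liver in each genotype, with Benjamini-Hochberg adjustment over all genes tested and a threshold of 0.05. The interaction was fitted over all 20 libraries. Single values were also tested by an exact two-sided permutation of 252 assignments (smallest p 0.00794). The exact p was not adjusted for the number of genes. Groups that do not overlap always give the smallest p, so there it only restates the separation. Alternatives were RLE and upper quartile factors, DESeq2 1.42.0, limma 3.58.1 voom with quality weights, other filters, a replicate block, a joint fit, another gene length and each library left out. Plain library sizes and the 2 pairs of libraries left out were added after the data were seen. The design gives 5 mice a group. Fat and liver titles share numbers, but whether a number marks 1 mouse is not stated. No 2 libraries were duplicates. Gene names matched 48058 of 48440 IDs in GENCODE vM21. The 40 genes and all lists were chosen with earlier results of these data known. All 40 are named by role. Library values are given for the 6 genes of smallest p in each tissue, those with the largest tissue difference and those lower in fat, and the 4 with the highest level per length in each WT tissue. Of each further matrix list up to 4 genes of smallest p are named, except 1 that is not reported here.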

Additional observations from a re-analysis of the deposited data

Results flagged for a closer look

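A library was singled out where its gap to the nearest of the other 4 libraries of its group, divided by the group's range, was above 0.71. This held for 22 of 160 combinations of gene and group, in 18 genes. A nominal rate of 1 in 20 would give 8, but that rate was not checked on these CPM values. The share of all genes that pass the same rule is not given, so the 22 is not a result about the matrix genes. WT fat 3 made up 11 of the 22, all as the highest of WT fat: Col1a1 (2201 CPM, gap share 0.725), Col5a1 (567 CPM, gap share 0.723), Col8a1 (30.5 CPM, gap share 0.852), Col12a1 (87.1 CPM, gap share 0.912), Fn1 (1492 CPM, gap share 0.783), Thbs1 (374 CPM, gap share 0.786), Tgfbi (158 CPM, gap share 0.805), Lox (131 CPM, gap share 0.814), Loxl2 (99.9 CPM, gap share 0.750), Mmp14 (153 CPM, gap share 0.750) and Timp1 (56.1 CPM, gap share 0.783). The genes share this library, so the 11 are not independent.

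KO fat 3 was highest in KO fat for Col1a1 (1199.9 CPM, gap share 0.771) and Mmp14 (118 CPM, gap share 0.833), which stood out in WT fat 3 as well. KO fat 5 was highest for Col4a1 (2027 CPM, gap share 0.779) and Sparc (3720.2 CPM, gap share 0.785), and KO fat 2 lowest for Loxl1 (43.6 CPM, gap share 0.788). In liver KO liver 5 was lowest for Col18a1 (819 CPM, gap share 0.818) and Lama4 (9.98 CPM, gap share 0.755), KO liver 4 highest for Lox (1.44 CPM, gap share 0.834) and Timp1 (0.991 CPM, gap share 0.842), both at a few counts, WT liver 5 highest for Col1a2 (50.2 CPM, gap share 0.725) and WT liver 4 lowest for Bgn (139.8 CPM, gap share 0.722).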

How the results depend on the processing

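In fat against liver, 35 of the 40 genes were called higher in fat under each alternative run except upper quartile factors in WT (36) and plain library sizes (37 in each genotype), and the counts of genes called over the whole table moved by less than 1.5-fold throughout. The genes of the 40 called lower in fat ran from 2 (upper quartile factors) to 4 (limma-voom) in WT. In KO they ran from 2 (plain library sizes) to 3. Near 0 the direction depended on scaling or on 1 library. With upper quartile factors the log2 difference of Tgfbi was 0.098 in WT and 0.19 in KO. On plain library sizes it was 0.77 and 0.82, and that of Col14a1 0.20 and 0.14. In KO, with 1 library left out, Tgfbi ran from -0.25 to 0.0158 (without KO fat 5) and Mmp14 from -0.0132 (without KO fat 3) to 0.60. For KO against WT, genes called over the whole table went from 0 to 16 with DESeq2 in fat, from 0 to 2 with DESeq2 in the interaction, and in liver from 1 to 138 with DESeq2 (1 of the 40 genes, Tgfbi, as lower), 15 with no filter on low counts, 3 with limma-voom, 2 with all 20 libraries in 1 fit, 3 without WT liver 2 and WT liver 4, and 0 to 3 with 1 library left out. The cause was not tested. Replicate numbers were not taken to pair the samples: same-numbered deviations correlated from -0.347 to 0.419 between KO fat and WT fat, 3 of 5 above 0.1, from -0.175 to 0.251 between the livers (1 of 5), from -0.131 to 0.173 between WT fat and WT liver (2 of 5) and from -0.0202 to 0.0457 between KO fat and KO liver (0 of 5). In each of these 1 of 5 libraries correlated best with its own number. With a replicate block, 3 genes were called in liver and 0 in fat, none of the 40, and 8 of the 40 had an unadjusted p under 0.05 in fat in place of 1. The share of all genes at that level with the block is not given, so the 8 is not a result about the 40 genes. Fat against liver with that block gave 35 of the 40 genes called higher and 3 lower in each genotype. Low counts limit Lox and Timp1 in liver.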
